A study of Homo sapiens with 8 samples.

Results

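The ZHX genes ZHX1, ZHX2 and ZHX3, the related gene HOMEZ and the neighbours C8orf76 and ZHX1-C8orf76 were followed in RNA-seq of Hct116 cells, a human colorectal carcinoma line. They are 6 of the 23459 genes of the count table, and all 6 were among the 13925 with enough counts to be tested. ZHX1 was picked on its rise in this comparison, and the other 5 belong by family name or by position, so the change of ZHX1 is given below as a description and carries no test. Of the 8 libraries, 4 came from cells kept for 16 h with DMSO, the solvent, and 4 from cells kept as long with 30 μM lenalidomide, a thalidomide derivative that binds the CRBN subunit of a ubiquitin ligase. The drug or DMSO was given as the cells were moved to isotope-labelled amino acids for protein measurements, with the labels swapped in 2 of the 4 replicates of each treatment, and the harvest was then divided between protein and RNA. The labels do not say which replicates were swapped. The submitters call the 4 libraries of each treatment biological replicates, whereas the methods call the replicates of the protein measurement technical, so p-values measure only the spread between these samples.

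ZHX proteins are nuclear factors that carry zinc fingers followed by a row of homeodomains, bind each other as homodimers and heterodimers, and are mostly known as repressors of transcription. ZHX1 was described as a partner of NFYA, the regulatory subunit of the CCAAT-binding factor NF-Y. ZHX2 is best known as a repressor of fetal genes such as AFP in the adult liver and as a target of the VHL ubiquitin ligase, and ZHX3 as a partner of ZHX1. HOMEZ is a relative with homeodomains and leucine zipper motifs.

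Upstream sequence is shown for HOMEZ and ZHX3 because NF-Y, the partner of ZHX proteins, reads the letters CCAAT, and these genes differ in them. RefSeq promoters on GRCh38.p14 were at hand for 2 of the 6 genes, and ZHX1, ZHX2, C8orf76 and ZHX1-C8orf76 were not among them. In the 250 bases before its start, HOMEZ held CCAAT 4 times, read on both strands (CCAAT or ATTGG). The first letters of the matches lay at -165, -133, -101 and -52 from the start. At least 1 match was present in 32.0% of the 35116 promoters searched, and at least 4 in 0.874%. ZHX3 has 2 starts in the table, and neither held a match in its 250 bases. A stretch of this sequence is given for HOMEZ (chr14:23286173-23286307, minus strand) and for the outermost start of ZHX3 (chr20:41317772-41317906, minus strand), with each CCAAT in capitals.
HOMEZ: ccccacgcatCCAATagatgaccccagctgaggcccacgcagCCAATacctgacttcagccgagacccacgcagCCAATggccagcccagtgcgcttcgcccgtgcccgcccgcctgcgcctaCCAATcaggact
ZHX3: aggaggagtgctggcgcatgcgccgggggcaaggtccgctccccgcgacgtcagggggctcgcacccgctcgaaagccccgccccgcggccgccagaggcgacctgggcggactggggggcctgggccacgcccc
All 4 CCAAT of HOMEZ fall in this window and point the same way, whereas the ZHX3 window shown is richer in G and C (79.3% against 65.9%). The same window at the other ZHX3 start, not shown, is poorer in them at 42.2%. A match of letters is a description and was not tied to binding in these cells.

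Each library held between 28218471 and 37473413 counts, and the 4 with lenalidomide were the smaller ones. Replicates of a treatment were not copies of each other, since chi-square over its degrees of freedom lay between 5.55 and 24.07 in all 12 pairs. Of 8 markers of colorectal epithelial cells, 5 (EPCAM, CDH1, KRT8, KRT18 and KRT19) were tested and none was called. VIL1, CEACAM5 and LGALS4 had at most 2 counts in any library, so these epithelial markers were near 0. The summed level of all 8 ran from 2287 to 2587 CPM (counts per megaread, after scaling of library sizes) with DMSO and from 2211 to 2544 CPM with lenalidomide. The 8 markers of blood, vessel, connective tissue, liver and glial cells summed to between 2.84 and 3.51 CPM with DMSO and between 2.77 and 4.37 CPM with lenalidomide. COL1A1 was the 1 of them with enough counts to be tested, and it was not called.

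On hg19, the build of the authors' alignment, ZHX1 lies on the minus strand of chromosome 8 between 124260691 and 124287781. C8orf76, an open reading frame named for its place, follows at 124232207 to 124253617 on the same strand. ZHX1-C8orf76 (124238429 to 124286524) is the annotated readthrough transcript that joins the start of the former to the latter. ZHX2 lies on the plus strand of the same chromosome, from 123793894 to 123986750, and its start lies at -0.494 Mb from that of ZHX1. HOMEZ is on chromosome 14 (23741631 to 23769005) and ZHX3 on chromosome 20 (39807088 to 39946371), both on the minus strand. These positions and the overlaps that follow are from GENCODE on GRCh37, whereas reads were counted on UCSC known genes. Exonic bases differ between them, at 2436 against 1342 for C8orf76 and 1325 against 1527 for ZHX1-C8orf76. How far the overlaps hold for the genes as counted was not tested. The annotated exons of ZHX1-C8orf76 share 892 bases with those of C8orf76, which is 67.3% of its own exonic bases, and 183 bases, or 13.8%, with ZHX1. For ZHX1 the shared part is 2.7% of its exonic bases. Exons of ZHX2 overlap no other gene. Those of ZHX3 share 268 bases with PLCG1 on the opposite strand, and those of HOMEZ share 655 bases with RNF212B on the opposite strand, 149 with BCL2L2 on the opposite strand and 141 with PPP1R3E on its own strand. Reads were counted with the default settings of QuasR, which take reads of either strand, so such reads cannot be told apart. The same holds for ADNP, ZFHX2, ATAD2, NDUFB9, TATDN1, NFYA, NFYC, VHL, CCNA2, NRIP1, KLK6, EFCAB2 and ALDOC, named further on. Their exons also overlap genes of the opposite strand.

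Levels of different genes were compared per kilobase of exonic width, as RPKM (CPM per kilobase). The 3 ZHX genes were unequal in these cells. With DMSO, ZHX1 was at 13.6 ± 0.272 RPKM, ZHX3 at 1.76 ± 0.134 RPKM and ZHX2 at 1.55 ± 0.0692 RPKM (SD, n = 4 each). ZHX1 thus stood above 67.7% of the genes tested, ZHX3 above 26.8% and ZHX2 above 25.0%. HOMEZ was at 4.13 ± 0.175 RPKM, above 41.1%. The neighbours were the highest of the 6. C8orf76 was at 33.5 ± 1.29 RPKM and ZHX1-C8orf76 at 26.4 ± 1.23 RPKM. By the GENCODE exons, which are not the widths used here, most of the latter is also exon of the former.

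**Figure D1:**
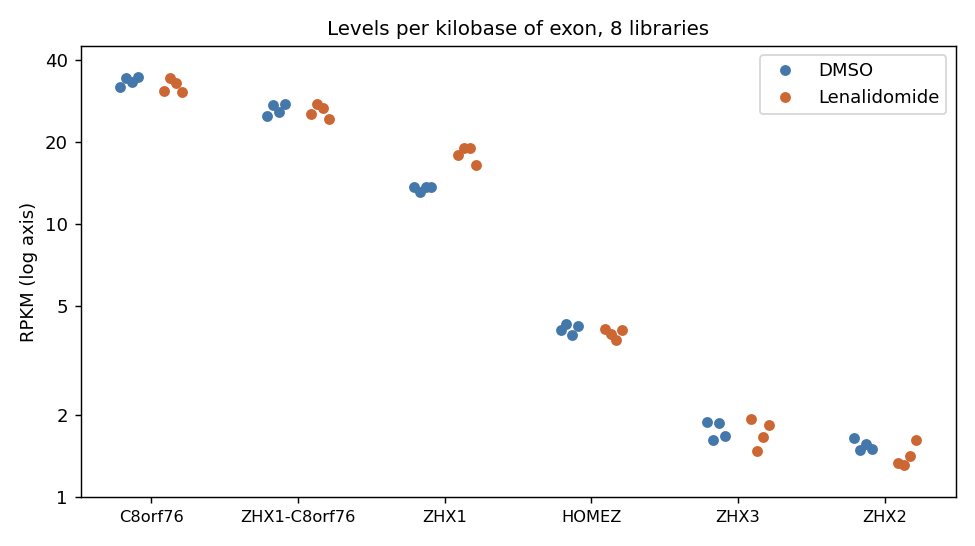
Levels of the 6 genes in RPKM on a log axis, in the order of their mean DMSO level. Each point is a library, 4 with DMSO and 4 with lenalidomide; ZHX1 lies between 13.2 and 19.03 RPKM, while ZHX3 and ZHX2 lie between 1.31 and 1.92 RPKM and overlap.

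From the highest to the lowest the order was C8orf76, ZHX1-C8orf76, ZHX1, HOMEZ, ZHX3 and ZHX2. This order was read from the mean DMSO levels of the same libraries, so it is a description with no test. All 5 neighbouring pairs stood in this order within each of the 8 libraries. ZHX1 exceeded HOMEZ by 1.95 ± 0.271 on the log2 RPKM scale and HOMEZ exceeded ZHX3 by 1.23 ± 0.144 (SD, n = 8 each). ZHX3 exceeded ZHX2 by 0.23 ± 0.129 on the same scale. That difference was between 0.12 and 0.53 in the single libraries, but the RPKM values of ZHX3 and ZHX2 overlapped across libraries. For the other 4 pairs no RPKM value of the lower gene reached one of the higher. The order rests on the widths of the table. By mean CPM alone ZHX1 was above C8orf76 and ZHX1-C8orf76, and ZHX3 above HOMEZ, although ZHX3 was just under HOMEZ in lenalidomide replicate 2.

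ZHX1 was the 1 gene of the 6 that moved apart between treatments. In DMSO replicates 1 to 4 it was at 73.9, 71.1, 74.2 and 73.8 CPM, and in lenalidomide replicates 1 to 4 at 96.5, 102.5, 102.8 and 88.7 CPM. No value of 1 treatment reached those of the other, and the lowest lenalidomide value was that of replicate 4, the smallest library. Raw counts of ZHX1 were between 2540 and 2797 with DMSO and between 2560 and 3399 with lenalidomide, although the lenalidomide libraries were smaller. The log2 fold change was 0.41 (standard error 0.056, 95% interval 0.29 to 0.54), a fold of 1.33. ZHX1 was chosen on this change, so the values of the choice are given as a description only. The adjusted p from edgeR's quasi-likelihood fit was 0.0253, inside the threshold of 0.05, but it is no test of a gene chosen this way. The next gene by p was the lipid exporter ABCA1, outside the threshold with an adjusted p of 0.172 and a log2 fold change of 1.08. LMBRD1, a lysosomal membrane protein of cobalamin transport, was the other gene past the threshold in the whole table (log2 fold change 0.78). With any 1 library left out except lenalidomide replicate 4, ZHX1 was no longer past it, at log2 fold changes of 0.39 to 0.42.

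**Figure D2:**
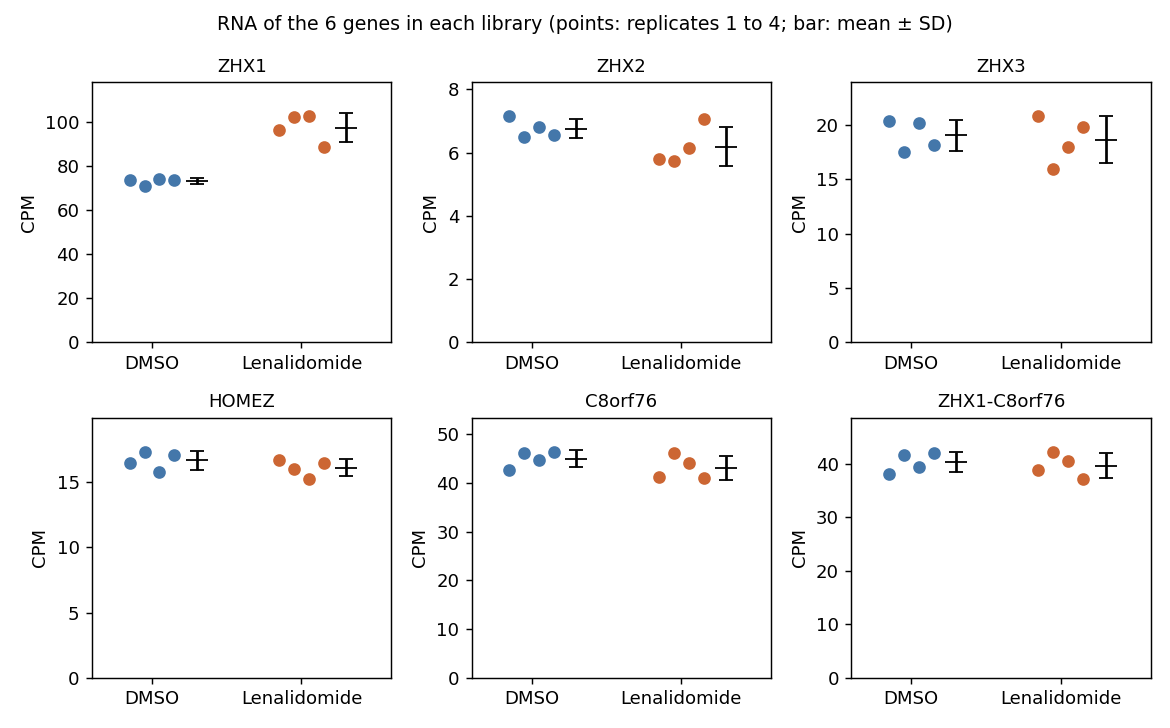
CPM of the 6 genes in every library. Points are replicates 1 to 4 of DMSO and of lenalidomide, the bars give the mean ± SD, and each axis starts at 0; ZHX1 is at 71.1 to 74.2 CPM with DMSO and 88.7 to 103 CPM with lenalidomide, and the other 5 genes overlap between treatments.

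Of all genes tested, 0.0144% were called at an adjusted p under 0.05, and 2.08% had no overlap between the 4 DMSO and the 4 lenalidomide values. Among the 6 genes ZHX1 was the 1 called and the 1 without overlap, which its choice fixed. Of the 5 genes not picked on this comparison, 0 were called by edgeR's quasi-likelihood test, 0 by DESeq2, and 0 had an unadjusted p under 0.05. The unadjusted threshold was passed by 582 of the 13925 genes, or 4.18%, so 0 of 5 is no result about these genes. Chance alone would give about 696 of the 13925.

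ZHX2, the liver repressor, was at 7.15, 6.48, 6.81 and 6.55 CPM in DMSO replicates 1 to 4. With lenalidomide it was at 5.81, 5.73, 6.14 and 7.07 CPM. In 3 of the 4 lenalidomide libraries ZHX2 was below every DMSO value, and replicate 4 was inside the DMSO range. The log2 fold change was -0.13 (95% interval -0.33 to 0.073, adjusted p = 0.999). Its counts, between 179 and 267 per library, were the lowest of the 6, and its spread between replicates (a coefficient of variation of 7.21%) was close to the 6.79% that counting alone gives.

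ZHX3, the dimer partner of ZHX1, was at 20.4, 17.5, 20.2 and 18.1 CPM in DMSO replicates 1 to 4. In the lenalidomide libraries it was at 20.8, 16.0, 18.0 and 19.8 CPM. The lenalidomide values held both the highest and the lowest of the 8. Its log2 fold change was -0.031 (95% interval -0.22 to 0.16, adjusted p = 0.999). ZHX3 varied most between replicates for its depth, with a coefficient of variation of 9.54% against 3.97% from counting.

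HOMEZ was at 16.5, 17.4, 15.8 and 17.1 CPM with DMSO and at 16.7, 16.0, 15.2 and 16.5 CPM with lenalidomide. The treatments overlapped, with a log2 fold change of -0.051 (95% interval -0.19 to 0.088, adjusted p = 0.999). The intervals of ZHX3 and HOMEZ thus leave room for a fold between 0.861 and 1.11 and between 0.877 and 1.06. For ZHX2 the fold lay between 0.797 and 1.05.

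The uneven change within the family can be read without any scaling from ratios inside each library. Per exonic length, ZHX1 exceeded ZHX3 by 7.27 to 8.16 times in the DMSO libraries and by 8.97 to 12.9 times in the lenalidomide libraries. Against ZHX2 the ratio of ZHX1 was 8.35 to 9.10 with DMSO and 10.1 to 14.4 with lenalidomide. The ratio of ZHX2 to ZHX3 was 0.882 ± 0.0356 with DMSO and 0.8292 ± 0.0933 with lenalidomide (SD, n = 4 each), and overlapped. ZHX1 made up 80.4 ± 0.751% of the summed RPKM of the 3 ZHX genes with DMSO and 85.1 ± 1.98% with lenalidomide (SD, n = 4 each). ZHX2 went from 9.17 ± 0.257% to 6.72 ± 0.971% and ZHX3 from 10.4 ± 0.554% to 8.16 ± 1.20% of that sum. Since these ratios hold the rise of ZHX1, they are descriptions of the same change and were not tested.

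The rise of ZHX1 was not seen in the genes next to it, whose values overlapped between treatments. C8orf76 was at 42.7, 46.2, 44.6 and 46.4 CPM with DMSO and at 41.1, 46.2, 44.1 and 41.0 CPM with lenalidomide, a log2 fold change of -0.061 (95% interval -0.18 to 0.062, adjusted p = 0.999). ZHX1-C8orf76 was at 38.1, 41.7, 39.4 and 42.0 CPM with DMSO and at 38.7, 42.2, 40.6 and 37.02 CPM with lenalidomide. Its log2 fold change was -0.024 (95% interval -0.15 to 0.10, adjusted p = 0.999). Both genes ranked their replicates in the same order within each treatment, but they share exons, so this is not agreement between separate measurements. Counts of the readthrough gene were 0.896 ± 0.00964 of those of C8orf76 with DMSO and 0.920 ± 0.0160 with lenalidomide (SD, n = 4 each), with ranges that overlapped between 0.904 and 0.906. How many reads were counted for both genes is not given by the table. The ratio of ZHX1 to C8orf76 counts was 1.63 ± 0.0850 with DMSO and 2.27 ± 0.0872 with lenalidomide (SD, n = 4 each).

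**Figure D3:**
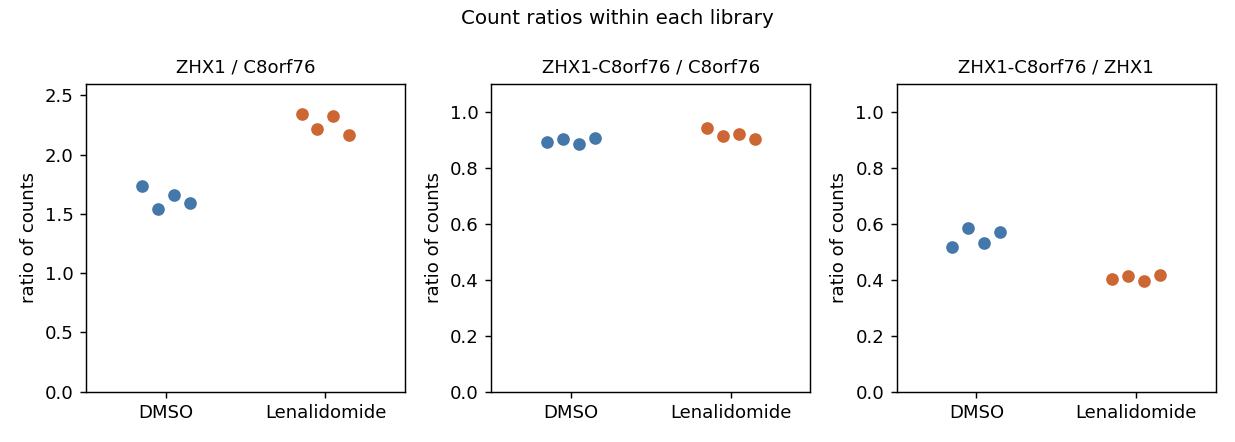
Ratios of raw counts within each library for ZHX1 to C8orf76, ZHX1-C8orf76 to C8orf76 and ZHX1-C8orf76 to ZHX1. Points are libraries and the axes start at 0; the ratio of ZHX1 to C8orf76 is 1.54 to 1.73 with DMSO and 2.166 to 2.35 with lenalidomide, while that of the readthrough gene to C8orf76 stays between 0.884 and 0.942.

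Further along chromosome 8, 15 genes at 8q24.13 with starts from -1.634 to 1.264 Mb of that of ZHX1 were read, of which 11 were tested. None was called by either edgeR or DESeq2 and 0 had an unadjusted p under 0.05. Of all genes tested 0.0144% were called by edgeR and 4.18% had such an unadjusted p. Beside these shares, 0 of 11 is no result about these genes. Their median log2 fold change was -0.028 beside 0.0025 over all genes tested. Of the 11, 9 were below 0, and without lenalidomide replicate 4 the median was 0.0041. Changes ran from -0.091 for TMEM65 to 0.14 for FBXO32, a muscle ubiquitin ligase subunit. ATAD2, a bromodomain ATPase whose start lies 0.141 Mb from that of ZHX1, averaged 583.7 ± 24.7 CPM (SD, n = 4) with DMSO and 553.1 ± 29.1 CPM with lenalidomide. NDUFB9, a subunit of respiratory complex I, had a log2 fold change of -0.028 and TATDN1 of -0.066. Exons of NDUFB9 and TATDN1 overlap on opposite strands by 187 bases. Those of NDUFB9 also share 2001 bases, or 12.1% of its exonic bases, with MTSS1 on the opposite strand.

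**Figure D4:**
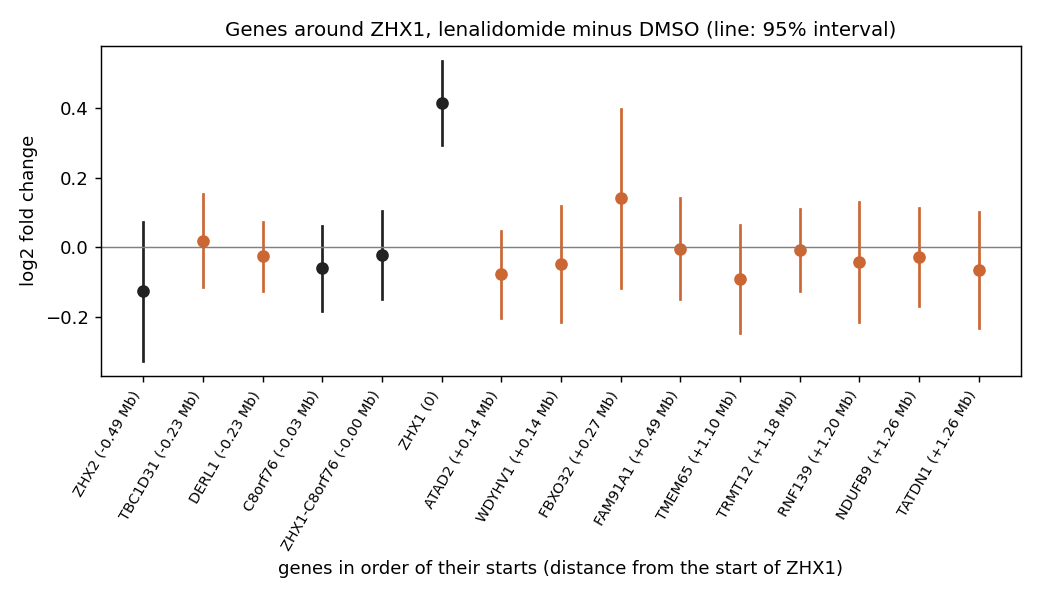
Log2 fold change of lenalidomide against DMSO for the tested genes around ZHX1, in the order of their starts, with the distance of each start from that of ZHX1 in Mb. Lines are 95% intervals; that of ZHX1 runs from 0.29 to 0.54, and the intervals of the other 14 genes include 0.

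Partners of the ZHX proteins were measured for the same libraries. NF-Y is a trimer, and its regulatory subunit NFYA was at 65.0, 64.3, 73.0 and 70.5 CPM in DMSO replicates 1 to 4 and at 71.6, 73.6, 85.2 and 84.3 CPM with lenalidomide. The lowest lenalidomide value lay inside the DMSO range, and replicates 3 and 4 were above replicates 1 and 2 in both treatments. The log2 fold change of NFYA was 0.21 (95% interval 0.058 to 0.35, unadjusted p = 0.00976, adjusted p = 0.999), so it did not pass the threshold. The histone-fold subunits NFYB and NFYC had log2 fold changes of 0.028 and 0.034. DNMT3B, a DNA methyltransferase reported to act with ZHX1, was at 0.089, and VHL, the ligase subunit that targets ZHX2, at -0.11 (95% interval -0.23 to 0.020). Of the 5 partners 0 were called by edgeR and 0 by DESeq2, and NFYA was the 1 with an unadjusted p under 0.05, beside 4.18% of all genes tested. The median of the 5 was 0.034.

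Targets of these factors went both ways. The 10 cell cycle and stress genes with CCAAT promoters known to be bound by NF-Y had a median log2 fold change of -0.019. Of the 10, 0 were called by edgeR or DESeq2 or had an unadjusted p under 0.05. Of all genes tested 4.18% had such an unadjusted p, so 0 of 10 is no result about these genes. CCNB1, the mitotic cyclin, averaged 881.7 ± 21.9 CPM (SD, n = 4) with DMSO and 858.0 ± 50.6 CPM with lenalidomide. TK1, a thymidine kinase, had a log2 fold change of -0.0030, the cyclin CCNB2 of -0.068, and the chaperone HSPA5 of 0.12 (95% interval -0.086 to 0.32). Of 5 genes that ZHX2 is known to repress in liver, AFP had too few counts to be tested. The other 4 had a median log2 fold change of 0.053, which was 0.0064 without lenalidomide replicate 1, 0.11 with no filter beyond 1 count and -0.0048 among genes with at least 10 counts in every library. Of the 4, 0 were called by edgeR or DESeq2 or had an unadjusted p under 0.05, which is no result beside the same 4.18%. CCNA2 and CCNE1, cyclins of S phase entry and progress, were at -0.023 and -0.0062, and CCNA2 is also among the 10 NF-Y targets. The fetal RNA H19 averaged 2.54 ± 0.225 CPM (SD, n = 4) with DMSO and 2.74 ± 0.517 CPM with lenalidomide. GPC3, an oncofetal glypican, was at most at 0.552 CPM in any library, and its interval of -0.53 to 1.01 shows how little these counts resolve.

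Outside the ZHX family, the zinc finger class of homeobox genes was also read. Of 10 such genes 7 were tested, and 0 were called by edgeR or DESeq2. ADNP, ZFHX3 and ZFHX4, 3 of the 7, had an unadjusted p under 0.05, each with a higher mean in the lenalidomide libraries. Of all genes tested 4.18% passed that threshold and 3.26% passed it with a higher value, that is 454 of the 582, so a rise was also the more common direction in the whole table. The median log2 fold change of the 7 was 0.31 beside 0.0025 over all genes tested, and 0.17 without lenalidomide replicate 4. ADNP, a chromatin-bound homeobox protein, was at 114.4, 109.1, 137.6 and 135.6 CPM with DMSO and at 126.6, 132.2, 181.5 and 194.0 CPM with lenalidomide. As in NFYA, replicates 3 and 4 were the higher in both treatments, and the treatments overlapped. Its log2 fold change was 0.35 (95% interval 0.083 to 0.62, adjusted p = 0.999). ZFHX4, a very large homeobox protein, was at 40.7, 36.7, 48.5 and 48.2 CPM with DMSO and at 50.8, 42.9, 65.1 and 80.6 CPM with lenalidomide, with the same lie of the replicates. Its log2 fold change was 0.46 (95% interval 0.13 to 0.79, adjusted p = 0.999), and 0.28 without lenalidomide replicate 4. ZFHX2, at a mean of 1.13 ± 0.160 CPM (SD, n = 4) with DMSO and 1.64 ± 0.644 CPM with lenalidomide, was at 0.53, and at 0.26 without the same library. ADNP2 was at -0.012.

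**Figure D5:**
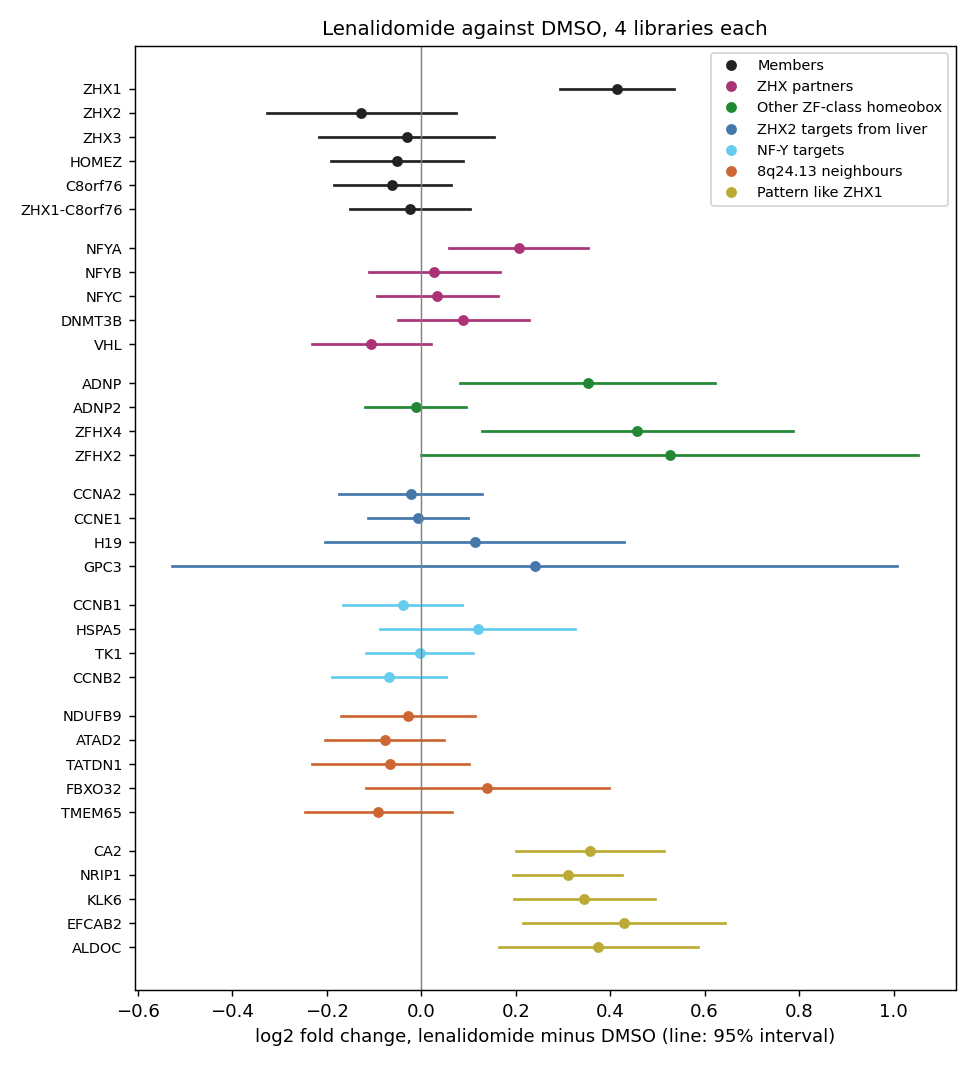
Log2 fold changes of lenalidomide against DMSO for the named genes, by group, with 95% intervals as lines. ZHX1 is at 0.41; the other 5 members are between -0.13 and -0.024 with intervals that include 0.

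The genes whose pattern over the 8 libraries was most like that of ZHX1 were searched among the 9093 genes that averaged 10 CPM or more. Likeness was the root mean square difference of log2 CPM, each gene centred on its own DMSO mean, for which the median gene gave 0.312. CA2, a carbonic anhydrase, was nearest at 0.106. It was at 17.4, 19.5, 15.5 and 17.6 CPM with DMSO and at 22.3, 23.2, 23.0 and 21.2 CPM with lenalidomide. NRIP1, a corepressor of nuclear receptors, followed at 0.110, then KLK6, a secreted serine protease, at 0.115, EFCAB2 at 0.134 and ALDOC, a glycolytic aldolase, at 0.136. All 5 had higher values with lenalidomide without overlap, which the search favours. Their log2 fold changes were between 0.31 and 0.43, against 0.41 for ZHX1. None of the 5 was called by edgeR's quasi-likelihood test (adjusted p between 0.172 and 0.999). DESeq2 did call CA2, NRIP1 and KLK6 (adjusted p of 0.0260, 0.000167 and 0.0327), but not EFCAB2 or ALDOC.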

How the data were processed

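RNA of 8 Hct116 libraries (4 DMSO, 4 lenalidomide) was read from a table of raw counts per gene, with the exonic width of each gene. The authors made it from total RNA (ScriptSeq v2) with QuasR (default settings, so without regard to strand) on hg19 and UCSC known genes, and deposited whole counts without normalization. The submitters' notes name bcl2fastq 2.17. The version of QuasR is not given in the sources used here.

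Counts were fitted in R 4.3.3 with edgeR 4.0.16: filterByExpr (minimum count 10, minimum total 15), TMM factors and the quasi-likelihood test with Benjamini-Hochberg adjustment over all 13925 genes tested, threshold 0.05. Standard errors and 95% intervals come from the coefficient and its F statistic. CPM use the TMM library sizes, and RPKM are CPM per kilobase of exonic width. PCR duplicates cannot be told from separate molecules. DESeq2 1.42.0, RLE scaling, other filters, the replicate number as a block and each library left out were the alternatives.

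The 6 genes, the lists and the tests were chosen with earlier results of these data known. Named are the 6 genes, the 5 partners, the top 3 by DMSO level and 2 by size of change of each other list, the 5 nearest in pattern to ZHX1, and the gene after it by p. Any further gene was named with its values in view. A planned permutation test of the order of levels is not given, since the order was read from the same libraries.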

Additional observations from a re-analysis of the deposited data

Results flagged for a closer look

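In 68 sets of 4 replicate values, the gap between the highest or lowest value and its nearest neighbour was set against the range of all 4. This gap stood out in 4 sets, and chance would give about 3. In DMSO replicate 2, ZHX1 measured 71.1 CPM beside 73.8 to 74.2 CPM in the other 3, and the lowest lenalidomide value was 88.7 CPM. In DMSO replicate 1, CCNE1 measured 61.9 CPM beside 58.5 to 58.9 CPM, and ATAD2 measured 620.7 CPM beside 569.0 to 572.8 CPM. In DMSO replicate 3, TMEM65 measured 22.0 CPM beside 26.8 to 27.2 CPM.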

How the results depend on the processing

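Under RLE scaling, DESeq2, either filter, a replicate block or the loss of any 1 library, 76 of the 78 log2 fold changes of the 6 genes kept their direction and their side of the threshold or, for ZHX1, stayed within the spread of replicates. The side of the threshold was not scored for ZHX1, whose calls are given below. At an adjusted p of 0.999 in edgeR's main fit, the other genes had little room to change side. The exceptions were ZHX3, which turned to 0.038 without lenalidomide replicate 2, and ZHX1-C8orf76, which turned to 0.0074 without lenalidomide replicate 4. As libraries were left out, the log2 fold change lay from 0.39 to 0.46 for ZHX1, from -0.20 to -0.092 for ZHX2, from -0.088 to 0.038 for ZHX3, from -0.080 to -0.025 for HOMEZ, from -0.096 to -0.038 for C8orf76 and from -0.056 to 0.0074 for ZHX1-C8orf76.

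The count of called genes was 2, and it was 9 with DESeq2, 4 with no filter beyond 1 count and 6 with the replicate block, each with ZHX1. It was from 1 to 2 when a library was left out, and ZHX1 was called there only without lenalidomide replicate 4. Fewer samples were used there, and otherwise the cause was not tested. At an unadjusted p the count of 582 ran from 306 to 1042. Same-numbered libraries had deviations that correlated at 0.129, 0.0910, -0.102 and 0.392 for replicates 1 to 4. For 3 of the 4 DMSO libraries the highest correlation was with the lenalidomide library of the same number. Libraries of different numbers correlated at -0.463 to 0.229, and only the value of replicate 4 was above that range. The labels do not state a pairing, and the main fit used none. With the block ADNP had an adjusted p of 0.0842, ZFHX4 of 0.0622 and NFYA of 0.229 by edgeR. In each of these genes every lenalidomide value was above the DMSO value of the same replicate number.

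Without division by width the order turned for HOMEZ over ZHX3 (-0.20) and for ZHX1-C8orf76 over ZHX1 (-1.08), which follows from their widths of 4037, 10828, 1527 and 5403 bases. ZHX1 over HOMEZ was 1.72 in the DMSO and 2.18 in the lenalidomide libraries, and ZHX1-C8orf76 over ZHX1 was 0.96 and 0.52, as the change of ZHX1 requires.

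Among the other named genes, 14 of 363 values changed sign, all when a library was left out, in genes near 0. Ranges there were -0.041 to 0.00026 for ADNP2, -0.078 to 0.017 for CCNA2, -0.026 to 0.0095 for CCNE1, -0.080 to 0.027 for NDUFB9, -0.020 to 0.069 for NFYB, -0.13 to 0.011 for TATDN1 and -0.028 to 0.023 for TK1. ABCA1, CA2, KLK6 and NRIP1 were past the threshold with DESeq2, and ABCA1 also with the block and with no filter beyond 1 count. Genes under about 1 CPM, such as GPC3, are limited by depth.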
